A study of Mus musculus with 12 samples.

Results

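The regulators and outputs of the integrated stress response followed here across 12 mouse kidneys were 10 genes: the transcription factors Atf4, Atf5, Atf3, Ddit3, Cebpb and Nupr1, the intracellular outputs Trib3 and Ppp1r15a, and the secreted proteins Gdf15 and Fgf21. These 10 genes were selected on their measured log2 signals in the 3 genotype groups, so their levels and differences are given as a description, with no test. Of the 10, 8 genes carried a probe under their own symbol, with 12 probes in all, among 12344 genes with a named probe in the deposited value table, which holds 23863 of the 45281 probes of the array. Among the annotated probes of that table none carried the symbol Gdf15 or Fgf21, so these 2 genes were not analysed here. RNA had been hybridised to Illumina MouseWG-6 arrays, and each value is a log2 signal, so that a difference of 1 is a doubling. The 4 Fh1-/- mice (labelled Fh1 KO) were homozygous for a conditional Fh1 allele and carried Ksp-Cre. The 4 Fh1-/-Hif-1α-/- mice (labelled Hif1a/Fh1 KO) were homozygous for conditional alleles of Fh1 and Hif-1α and also carried Ksp-Cre. The 4 controls were littermates of 1 of 2 kinds, with floxed alleles but no Cre, or with Cre but an allele it cannot delete, and which kind each control was is not given. All 12 mice were 15 weeks old and are labelled C57BL/6, and the study describes its lines as backcrossed to C57/BL6J. Ksp-Cre is driven by the kidney specific cadherin promoter and acts in tubules, so other kidney cells keep both genes. The labels name the tissue of every array, controls included, as cysts, whereas the study describes kidneys.

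Fh1 encodes fumarate hydratase of the citric acid cycle, and Hif-1α is a transcription factor of the hypoxia response. In the integrated stress response, kinases that sense amino acid shortage, misfolded proteins, heme lack or viral RNA phosphorylate the initiation factor eIF2. General protein synthesis then slows while the Atf4 transcript is translated more efficiently. ATF4 pairs with other basic leucine zipper proteins on C/EBP-ATF response elements and turns on genes for amino acid uptake and synthesis, further transcription factors, and feedback inhibitors. Because ATF4 is controlled largely at translation, the level of its transcript, which the arrays measure, is not a measure of the protein.

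The brightest probe of each of the 8 measured genes was higher in Fh1-/- kidneys than in control kidneys, and likewise in Fh1-/-Hif-1α-/- kidneys than in control kidneys. In each of these 2 comparisons every array of the mutant group lay above every control array for 8 of 8 genes. The same held for 6.52% of all 23863 probes in Fh1-/- kidneys and for 9.81% in Fh1-/-Hif-1α-/- kidneys, while 7.7% and 9.6% of probes lay wholly below control, and nothing is read from the count because these contrasts chose the genes. The median difference over the 8 genes was 1.76 in Fh1-/- kidneys and 2.07 in Fh1-/-Hif-1α-/- kidneys against control, beside medians of -0.05 and -0.06 over all probes. The 2 comparisons share their 4 control arrays. Differences ranged over the genes between 0.35 (Ppp1r15a) and 3.22 (Trib3) for Fh1-/- kidneys, and between 0.34 (Atf4) and 4.25 (Trib3) for Fh1-/-Hif-1α-/- kidneys. In whole-kidney RNA, a change in the number of cells of a type and a change in RNA per cell cannot be told apart.

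**Figure D1:**
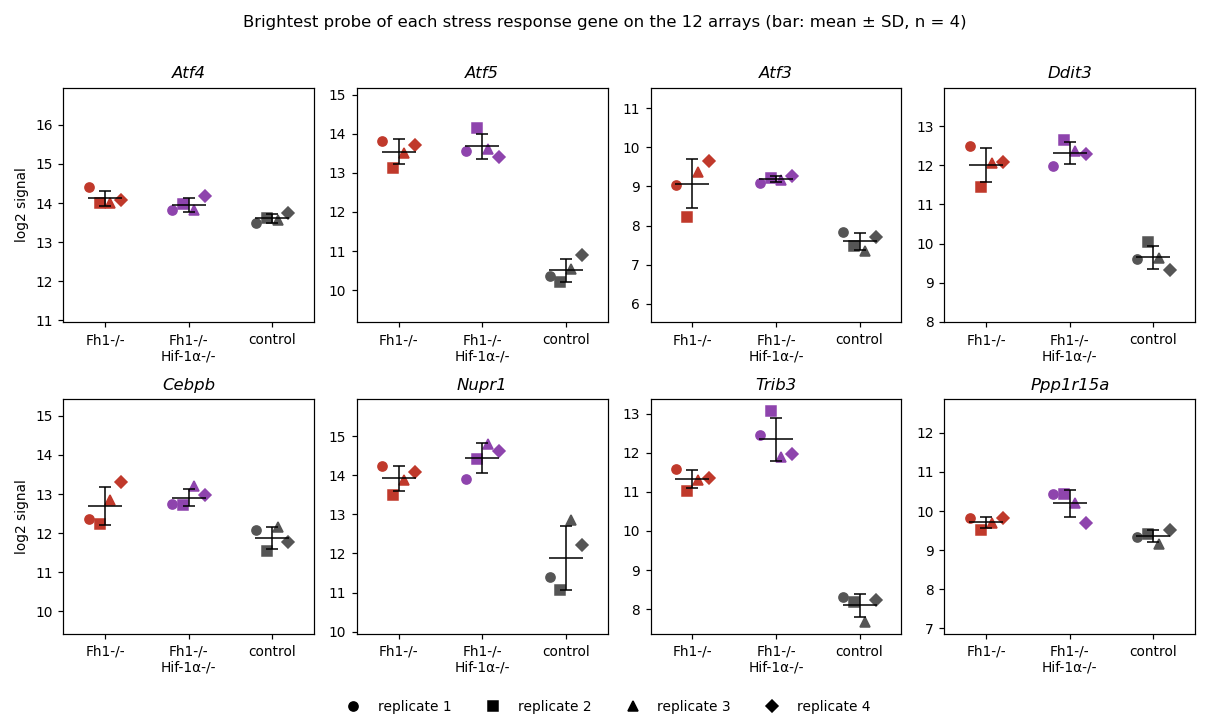
Log2 signal (vertical axis, spanning 6 units in each panel) of the brightest probe of the 8 measured genes in Fh1-/-, Fh1-/-Hif-1α-/- and control kidneys. Symbols mark replicates 1 to 4 and bars the mean ± SD (n = 4); for Trib3 and Atf5 the control arrays lie furthest below both mutant groups, and for Atf4 and Ppp1r15a the groups lie closest.

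To show what the regulatory sequences of these genes share, the RefSeq promoters of all 10 genes (GRCm38.p6, 250 bases before to 50 after each start, 12 windows since Atf5 and Gdf15 have a pair of starts each) were searched on both strands. The C/EBP-ATF response element core TGATGNAA occurred in 3.97% of 32851 mouse promoter windows of the same length. It occurred in 4 of the 12 windows here, those of 4 of the 10 genes. Of these 4, Atf3, Nupr1 and Fgf21 carried the same 8 letters upstream of the start, a match on the strand opposite to the gene, and they are printed below in the direction of transcription with the match in capitals. Ppp1r15a is printed beside them because its window held the cyclic AMP response element TGACGTCA, which was found in 1.79% of windows.
Atf3: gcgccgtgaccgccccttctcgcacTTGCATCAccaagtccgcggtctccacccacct
Nupr1: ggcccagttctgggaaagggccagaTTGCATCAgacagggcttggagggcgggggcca
Fgf21: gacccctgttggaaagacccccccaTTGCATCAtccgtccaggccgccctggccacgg
Ppp1r15a: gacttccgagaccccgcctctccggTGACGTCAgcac
The Atf3 stretch is chr1:191183411-191183468, Nupr1 chr7:126625548-126625605, Fgf21 chr7:45615597-45615654 and Ppp1r15a chr7:45526269-45526305, all on the minus strand. In Atf3 and in Nupr1 the match covered bases -110 to -103 from the start, in Fgf21 bases -139 to -132, and the Ppp1r15a match covered bases -12 to -5. The fourth match to the C/EBP-ATF core, in Trib3, lay at bases 14 to 21 within the transcript. No match to this core was found in the windows of Atf4, Atf5, Ddit3, Cebpb, Gdf15 or Ppp1r15a.

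Other motifs were spread over the windows. The AP-1 site TGANTCA occurred once, at bases -242 to -236 of Ddit3, and in 7.81% of all windows. The hypoxia response element core ACGTG occurred in 5 of the 12 windows (Ddit3, Nupr1, Gdf15, Fgf21 and Ppp1r15a) and in 19.6% of all windows. The antioxidant response element core TGACNNNGC occurred in 2 of the 12 windows (Cebpb and Ppp1r15a) and in 12.4% of all windows. In Nupr1, Gdf15 and Fgf21 the hypoxia core matched on both strands at overlapping bases, and matches to different motifs did not overlap. These matches are letters in a window, and binding was not measured.

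**Figure D2:**
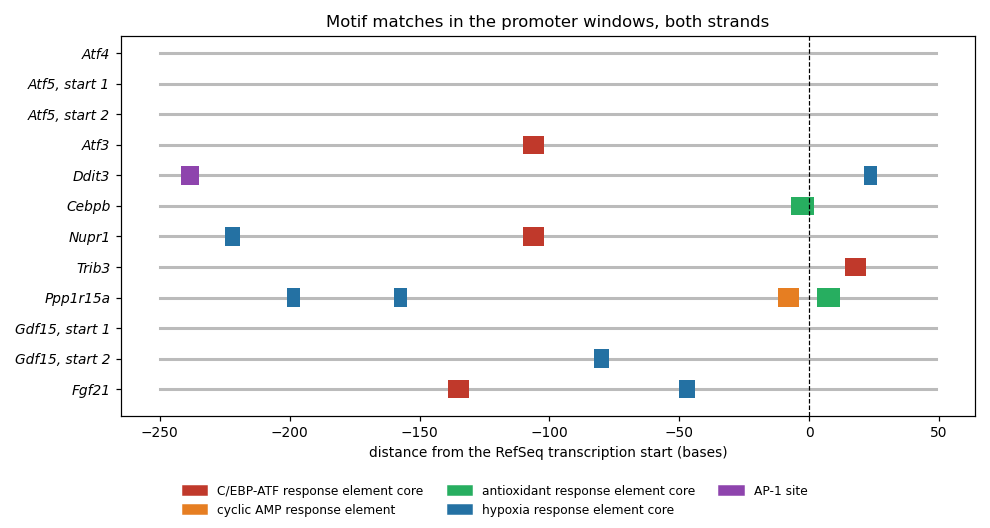
Motif matches (coloured boxes) along the 12 promoter windows of the 10 genes; the horizontal axis is the distance in bases from the RefSeq start, marked by the dashed line. The C/EBP-ATF core (red) lies upstream of the start in Atf3, Nupr1 and Fgf21 and downstream of it in Trib3.

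On its brighter probe Atf4, the translated centre of the pathway, was among the brightest of every array, controls included, and differed little between groups. Its brighter probe read 14.41, 13.99, 14.00 and 14.07 in Fh1-/- kidneys and 13.81, 13.97, 13.82 and 14.18 in Fh1-/-Hif-1α-/- kidneys, against 13.49, 13.63, 13.57 and 13.74 in control kidneys. The mutant groups did not overlap the controls, but the lowest Fh1-/-Hif-1α-/- array was only 0.07 above the highest control. The difference from control was 0.51 (SE 0.12, 1.42-fold) in Fh1-/- kidneys and 0.34 (SE 0.12, 1.26-fold) in Fh1-/-Hif-1α-/- kidneys. A dimmer Atf4 probe gave larger and more scattered differences, of 1.21 for Fh1-/- and 0.80 for Fh1-/-Hif-1α-/- kidneys (SE 0.33 each). On that probe the arrays read 12.25, 11.73, 12.31 and 12.62 in Fh1-/- kidneys and 11.18, 12.42, 11.45 and 12.21 in Fh1-/-Hif-1α-/- kidneys, against 11.25, 11.40, 10.10 and 11.32 in control kidneys. Control replicate 3 stood well below the other controls, and Fh1-/-Hif-1α-/- replicate 1 lay within the range of the controls. Atf4 was the only one of the 8 genes whose mean was lower in Fh1-/-Hif-1α-/- than in Fh1-/- kidneys, by -0.17 on the brighter probe and -0.41 on the dimmer one, with overlapping arrays on both. On both probes the means thus ran in the order Fh1-/-, Fh1-/-Hif-1α-/- and control. The mutant groups overlapped on both, and the Fh1-/-Hif-1α-/- and control groups on the dimmer one.

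Atf5, a relative of ATF4 that is also translated preferentially under stress, showed one of the widest separations. It read 13.82, 13.12, 13.51 and 13.72 in Fh1-/- kidneys and 13.56, 14.14, 13.61 and 13.40 in Fh1-/-Hif-1α-/- kidneys, against 10.37, 10.22, 10.54 and 10.91 in control kidneys. The lowest mutant array was at least 2.21 above the highest control. Atf5 was 8.18-fold higher in Fh1-/- kidneys (difference 3.03, SE 0.20) and 8.98-fold higher in Fh1-/-Hif-1α-/- kidneys (difference 3.17, SE 0.20) than in control. The mutant groups overlapped and their means were 0.13 apart, within the SE.

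Atf3, a repressor and activator induced by many stresses, was near the bottom of the array in controls, where it lay between the 1.0 and 5.9 percentile of all probes. It read 9.04, 8.23, 9.38 and 9.65 in Fh1-/- kidneys and 9.09, 9.22, 9.17 and 9.26 in Fh1-/-Hif-1α-/- kidneys, against 7.83, 7.47, 7.36 and 7.71 in control kidneys. The 4 Fh1-/-Hif-1α-/- arrays lay close together (SD 0.07), while the Fh1-/- arrays spread widely (SD 0.62) around nearly the same mean. The difference from control was 1.48 in Fh1-/- kidneys and 1.59 in Fh1-/-Hif-1α-/- kidneys (SE 0.24 each). The Fh1-/- difference was 0.99 over replicates 1 and 2 and 1.98 over replicates 3 and 4.

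Ddit3 encodes CHOP, the C/EBP relative that ATF4 induces and that is associated with cell death in prolonged stress. Its brighter probe read 12.49, 11.44, 12.06 and 12.08 in Fh1-/- kidneys and 11.98, 12.65, 12.37 and 12.28 in Fh1-/-Hif-1α-/- kidneys, against 9.61, 10.03, 9.63 and 9.32 in control kidneys. All mutant arrays stood at least 1.41 above the highest control. Ddit3 was 5.16-fold higher in Fh1-/- kidneys (difference 2.37, SE 0.22) and 6.36-fold higher in Fh1-/-Hif-1α-/- kidneys (difference 2.67, SE 0.22) than in control. A second Ddit3 probe gave differences of 2.09 and 2.53 in the same order (SE 0.21 each). Between Fh1-/-Hif-1α-/- and Fh1-/- kidneys the difference was 0.30 on the first probe and 0.45 on the second, with overlap on both.

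Cebpb encodes C/EBPβ, a dimer partner of ATF4 with its own roles in inflammation and fat cell differentiation. It read 12.37, 12.23, 12.85 and 13.31 in Fh1-/- kidneys and 12.74, 12.72, 13.20 and 12.98 in Fh1-/-Hif-1α-/- kidneys, against 12.07, 11.54, 12.16 and 11.78 in control kidneys. The lowest Fh1-/- array was 0.08 above the highest control, and the lowest Fh1-/-Hif-1α-/- array 0.56 above it. The differences from control were 0.80 (1.75-fold) in Fh1-/- kidneys and 1.02 (2.03-fold) in Fh1-/-Hif-1α-/- kidneys, with an SE of 0.22 each. Over replicates 1 and 2 the Fh1-/- difference was 0.50, and over replicates 3 and 4 it was 1.11.

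Nupr1 encodes a small stress-induced chromatin protein. It read 14.24, 13.50, 13.89 and 14.07 in Fh1-/- kidneys and 13.91, 14.41, 14.79 and 14.62 in Fh1-/-Hif-1α-/- kidneys, against 11.39, 11.07, 12.86 and 12.21 in control kidneys. Its controls were the most scattered of the brightest probes (SD 0.81), and the highest of them, replicate 3, was 0.64 below the lowest Fh1-/- array. Nupr1 was 4.12-fold higher in Fh1-/- kidneys (difference 2.04, SE 0.33) and 5.85-fold higher in Fh1-/-Hif-1α-/- kidneys (difference 2.55, SE 0.33) than in control. Of the 4 Fh1-/-Hif-1α-/- arrays, 3 lay above every Fh1-/- array, for a difference of 0.51.

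Trib3 encodes a pseudokinase that ATF4 and CHOP induce and that in turn restrains them. It had the greatest difference among the 8 genes in all 3 comparisons and was the only one that separated the mutant groups. Its brightest probe read 11.59, 11.03, 11.30 and 11.34 in Fh1-/- kidneys and 12.46, 13.07, 11.88 and 11.96 in Fh1-/-Hif-1α-/- kidneys, against 8.30, 8.17, 7.66 and 8.24 in control kidneys. The control values lay between the 3.3 and 25.6 percentile of their arrays, so folds over them are uncertain without detection calls. The 4 arrays of each group stood apart from those of the other groups, in the order Fh1-/-Hif-1α-/-, Fh1-/- and control. Trib3 was 9.34-fold higher in Fh1-/- kidneys (difference 3.22, SE 0.24) and 19.0-fold higher in Fh1-/-Hif-1α-/- kidneys (difference 4.25, SE 0.24) than in control. Between Fh1-/-Hif-1α-/- and Fh1-/- kidneys it was 2.04-fold higher, a difference of 1.03 (SE 0.24), with 0.29 between the nearest arrays.

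The other 2 Trib3 probes were dimmer and gave smaller differences in the same direction. Probe 2 averaged 8.79 ± 0.31 in Fh1-/- kidneys and 9.63 ± 0.44 in Fh1-/-Hif-1α-/- kidneys, against 7.78 ± 0.23 in control kidneys (SD, n = 4). Probe 3 averaged 8.32 ± 0.21 in Fh1-/- kidneys and 9.11 ± 0.51 in Fh1-/-Hif-1α-/- kidneys, against 7.51 ± 0.12 in control kidneys. In controls probe 3 lay between the 1.1 and the 2.8 percentile of the array, and no detection call shows whether it was above background there. All 3 probes kept the groups apart in every comparison, with differences between Fh1-/-Hif-1α-/- and Fh1-/- kidneys of 1.03, 0.83 and 0.79. The size of that difference varied with the replicates used: on the brightest probe it was 1.46 over replicates 1 and 2 and 0.59 over replicates 3 and 4.

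Ppp1r15a encodes GADD34, which brings a phosphatase to eIF2 and ends the response. It read 9.82, 9.51, 9.69 and 9.82 in Fh1-/- kidneys and 10.44, 10.44, 10.21 and 9.70 in Fh1-/-Hif-1α-/- kidneys, against 9.34, 9.42, 9.17 and 9.51 in control kidneys. The lowest Fh1-/- array and the highest control had the same value of 9.51 at 2 decimals, so the Fh1-/- group was barely set apart. The difference from control was 0.35 (SE 0.16) in Fh1-/- kidneys and 0.84 (SE 0.16, 1.79-fold) in Fh1-/-Hif-1α-/- kidneys. All Fh1-/-Hif-1α-/- arrays but replicate 4 lay above every Fh1-/- array. The constitutive counterpart Ppp1r15b, which does the same without stress, did not pass in either comparison with control, at -0.03 in Fh1-/- kidneys (limma, adjusted p = 0.92) and -0.08 in Fh1-/-Hif-1α-/- kidneys (adjusted p = 0.69).

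**Figure D3:**
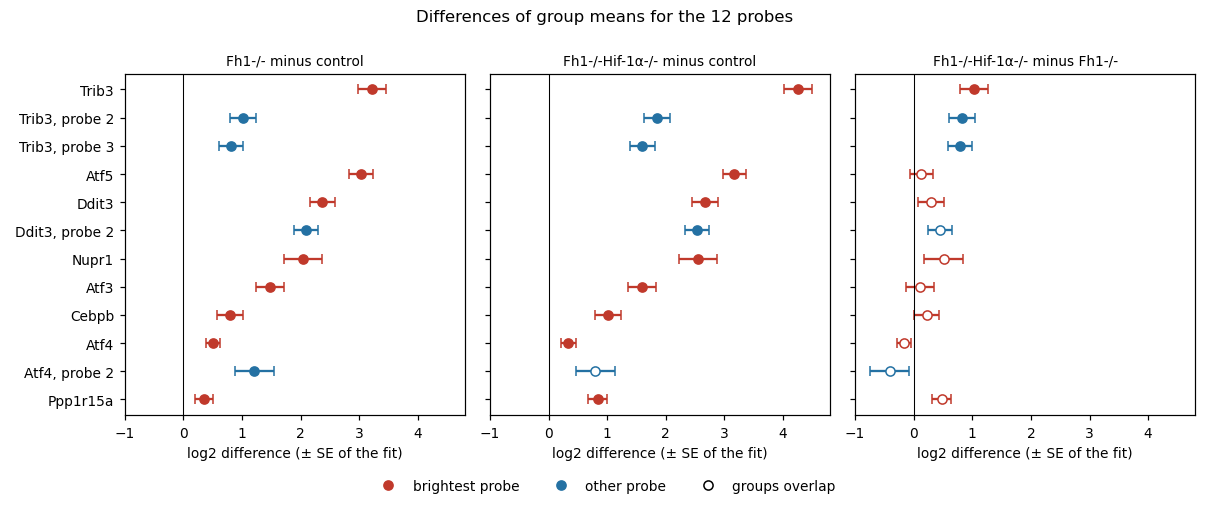
Log2 differences (horizontal axis, ± SE of the fit, n = 4 per group) of the 12 probes in the 3 comparisons; red marks the brightest probe of a gene, blue the others, and open points groups that overlap. Against control all 12 probes lie above 0, while between Fh1-/-Hif-1α-/- and Fh1-/- kidneys the 3 Trib3 probes are the filled ones.

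Between Fh1-/-Hif-1α-/- and Fh1-/- kidneys, 7 of the 8 genes had the higher mean in Fh1-/-Hif-1α-/- kidneys and 1 had the lower mean, with a median difference of 0.26 beside 0.00 over all probes. Only Trib3 was higher without overlap, as were 3% of all probes, and no gene was lower without overlap, as were 1.86% of all probes. For Atf3 and Atf5 the sign of this difference depended on the replicates: over replicates 1 and 2 it was 0.52 for Atf3 and 0.37 for Atf5, and over replicates 3 and 4 it was -0.30 and -0.10. The labels give no reason for such a split, but the second principal component of all probes, with 18% of the variance, parted replicates 1 and 2 of every group from replicates 3 and 4.

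Within the Fh1-/- group the 8 genes varied together. Replicate 2 was the lowest Fh1-/- array for 8 of 8 genes, on average 0.42 below the group mean, and replicate 1 was the highest for 6 of them. In the other groups no array was the lowest for more than 4 genes (Fh1-/-Hif-1α-/- replicate 1). Fh1-/- replicate 2 also lay nearer to the controls over the whole array: on the first principal component (36.88% of the variance) the Fh1-/- arrays stood at -26.7, 6.77, -18.2 and 2.60, the Fh1-/-Hif-1α-/- arrays between -43.7 and -16.3, and the controls between 21.9 and 47.7. Over the 726 probes that rose in Fh1-/- kidneys, replicate 2 was the lowest Fh1-/- array for 47.5% and replicate 4 for 44.1%, whereas replicate 4 was the lowest for none of the 8 genes. Of 11 further stress response genes that rose in Fh1-/- kidneys, described below, replicate 2 was the lowest for 8 and replicate 4 for 2. A low replicate 2 was thus not particular to the 8 genes. The mean log2 signal of 10 tubular injury genes was 10.91, 10.20, 11.09 and 10.28 over the same 4 arrays, low on both replicates 2 and 4. For 16 Nrf2 targets it was 13.23, 12.77, 12.95 and 12.84, lowest on replicate 2. Without replicate 2 the Fh1-/- difference from control was 1.77 for Atf3 and 2.56 for Ddit3.

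**Figure D4:**
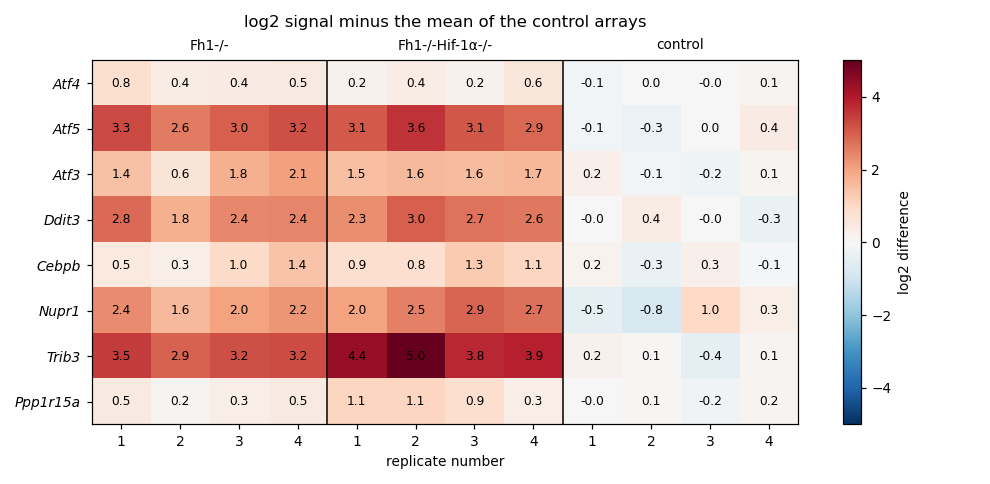
Log2 signal minus the mean of the 4 control arrays (colour and printed value) for the brightest probe of the 8 genes (rows) on the 12 arrays (columns, replicates 1 to 4 of each group). In the Fh1-/- block the second column holds the lowest value for all 8 genes.

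For each gene, the 2 genes outside the 10 whose profiles lay nearest over the 12 arrays are a description of likeness. Likeness was the root mean square (RMS) difference of values centred on the control mean. Trib3 lay nearest to Ugt2b35, a glucuronosyltransferase (RMS 0.406), and Cbr3, a carbonyl reductase (0.581). Cbr3 shared the order of the groups with Trib3, at 3.69 above control in Fh1-/- kidneys and 4.81 above it in Fh1-/-Hif-1α-/- kidneys. Atf5 lay nearest to Akr1b8, an aldo-keto reductase (0.316), and Cdkn1a, the cell cycle inhibitor p21 (0.338). Ddit3 lay nearest to Sprr1a (0.295) and Fbxo2 (0.322). Nupr1 lay nearest to Mthfd2, a mitochondrial folate enzyme (0.436), and the cell cycle inhibitor Cdkn2b (0.457). Atf3 lay nearest to the cytokine receptor Tnfrsf12a (0.253) and the urokinase receptor Plaur (0.295). Cebpb lay nearest to Chka, a choline kinase (0.230), and Mid1ip1 (0.232). For Atf4 (Triap1, 0.095, and Hprt, 0.117) and Ppp1r15a (Kiss1, 0.100, and Kif22, 0.131) the distances were smaller still, beside smaller differences between groups.

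Beyond the 10 genes, 90 further genes of the stress response were listed in 5 groups, of which 78 were measured, and these were tested with limma over all 23863 probes. In Fh1-/- kidneys 11 of the 78 rose against control and 0 fell at an adjusted p under 0.05, with a median difference of 0.18, beside 3.04% of all probes that rose and 1.93% that fell. In Fh1-/-Hif-1α-/- kidneys 24 rose and 2 fell, with a median of 0.23, beside 8.62% and 7.97% of all probes. The lists were drawn up with earlier results of these arrays known, so the counts are not independent evidence of a direction. The other 67 genes in the first comparison and the other 52 in the second did not pass. Over replicates 1 and 2 alone 6 and 27 genes passed in the same order, and over replicates 3 and 4 alone 3 and 5.

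The greatest rise in each comparison belonged to a gene of amino acid supply, Aldh1l2 in Fh1-/- kidneys and Slc7a11 in Fh1-/-Hif-1α-/- kidneys. Of 17 measured, 5 rose in Fh1-/- kidneys (Aldh1l2, Slc7a11, Asns, Mthfd2 and Aldh18a1), and 7 rose and 1 fell in Fh1-/-Hif-1α-/- kidneys. Aldh1l2, a mitochondrial folate enzyme, averaged 11.07 ± 0.15 in Fh1-/- kidneys and 11.08 ± 0.30 in Fh1-/-Hif-1α-/- kidneys, against 8.29 ± 0.27 in control kidneys (SD, n = 4). It rose 6.89-fold in Fh1-/- kidneys (limma, adjusted p = 5.3e-06) and 6.91-fold in Fh1-/-Hif-1α-/- kidneys (adjusted p = 1.4e-06). Slc7a11, the cystine importer, rose 4.61-fold in Fh1-/- kidneys (adjusted p = 0.00024) and 9.84-fold in Fh1-/-Hif-1α-/- kidneys (adjusted p = 3.1e-06). Its control arrays read only 7.31 to 7.49, near the floor of the array, so these folds are uncertain without detection calls. The 3 dimmer Slc7a11 probes differed far less, with 0 of 3 past the threshold in Fh1-/- kidneys and 2 of 3 in Fh1-/-Hif-1α-/- kidneys. They lay low on the array in all groups, where a change is hard to see. Asns, asparagine synthetase, rose 4.34-fold in Fh1-/- kidneys (adjusted p = 0.013) and 6.66-fold in Fh1-/-Hif-1α-/- kidneys (adjusted p = 0.00098), over widely spread controls (SD 1.11). Shmt2, another mitochondrial folate enzyme, fell by 1.07 in Fh1-/-Hif-1α-/- kidneys (adjusted p = 0.0079), so members of the same pathway moved in opposite directions.

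Among 15 stress outputs, 3 rose in Fh1-/- kidneys (Chac1, Stc2 and Ero1a) and 4 in Fh1-/-Hif-1α-/- kidneys (Chac1, Stc2, Bbc3 and Sesn2). Chac1, which degrades glutathione, rose 5.43-fold in Fh1-/- kidneys (limma, adjusted p = 0.002) and 6.83-fold in Fh1-/-Hif-1α-/- kidneys (adjusted p = 0.00028). Stc2, a secreted glycoprotein, rose 1.98-fold in Fh1-/- kidneys (adjusted p = 0.023) and 2.24-fold in Fh1-/-Hif-1α-/- kidneys (adjusted p = 0.0037). Bbc3, which encodes the cell death protein PUMA, rose 2.22-fold in Fh1-/-Hif-1α-/- kidneys on its brightest probe (adjusted p = 0.00037), whereas its other 2 probes differed by 0.06 and 0.00. The group means of those 2 probes were 8.07 to 8.22, low on the array, where a change is hard to see.

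Among 17 dimer partners and Tribbles relatives, Fosl2, Junb and Jdp2 rose in Fh1-/- kidneys, by 1.29, 1.18 and 1.14 (limma, adjusted p = 0.0053, 0.026 and 0.0057). In Fh1-/-Hif-1α-/- kidneys 6 rose, led by Fos (1.60, adjusted p = 0.017), Fosl2 (1.39) and Junb (1.38), and Trib2 fell by 1.01 (adjusted p = 0.0059). Trib2 thus went the other way from Trib3, and Trib1 did not pass, at 0.35 in Fh1-/- kidneys and 0.18 in Fh1-/-Hif-1α-/- kidneys. A second Junb probe lay near the floor and did not pass, at -0.08 and 0.06 in the same order.

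Of 16 aminoacyl-tRNA synthetases, 0 passed on their brightest probe in Fh1-/- kidneys, where their median was 0.21, and 6 rose in Fh1-/-Hif-1α-/- kidneys by limma. A second Sars probe did pass in Fh1-/- kidneys (0.78, adjusted p = 0.04), whereas the brightest stood at 0.22 (adjusted p = 0.34). The largest of the 6 rises in Fh1-/-Hif-1α-/- kidneys were Vars (0.78, adjusted p = 0.00081), Wars (0.70, adjusted p = 0.0027) and Gars (0.56, adjusted p = 0.0031). These enzymes charge valine, tryptophan and glycine to their tRNAs. A list of 13 measured genes held subunits of eIF2, its exchange factor, its kinases and the related genes Impact, Nck1 and Ppp1r15b. Of these 13, 0 passed in Fh1-/- kidneys and 1 rose in Fh1-/-Hif-1α-/- kidneys (Eif2s2, 0.37, limma adjusted p = 0.039). Among the measured kinases, Eif2ak1 (HRI) differed from control by -0.19 in Fh1-/- kidneys and by -0.18 in Fh1-/-Hif-1α-/- kidneys. In the same order Eif2ak2 (PKR) differed by 0.22 and -0.12, and Eif2ak3 (PERK) by 0.04 and -0.05. None of these passed, and Eif2ak4 (GCN2) was not among the measured genes.

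**Figure D5:**
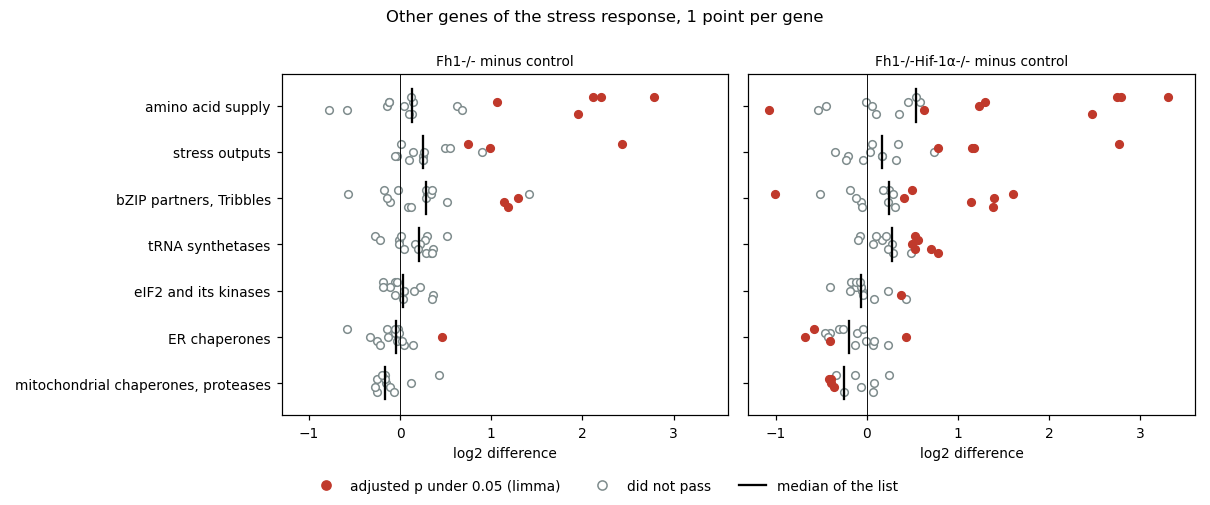
Log2 differences from control (horizontal axis) of the other stress response genes and of endoplasmic reticulum and mitochondrial chaperone genes, 1 point per gene, in Fh1-/- kidneys (left) and Fh1-/-Hif-1α-/- kidneys (right). Filled points passed limma at an adjusted p under 0.05 and black bars are list medians; the points furthest to the right belong to amino acid supply and to Chac1.

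Between Fh1-/-Hif-1α-/- and Fh1-/- kidneys 0 of the 78 genes passed limma, with a median of 0.06, beside 0.138% of all probes that rose and 0.0503% that fell. At an unadjusted p under 0.05, 10 were higher and 2 lower by limma, and 9 were higher and 3 lower by a plain linear model, which also made 0 adjusted calls. The nearest to the threshold was Slc7a11, 1.10 higher in Fh1-/-Hif-1α-/- kidneys (adjusted p = 0.08, unadjusted 95% interval 0.62 to 1.57). For Chac1 the interval of this difference ran between -0.40 and 1.07 and for Asns between -0.28 and 1.51, intervals that hold both 0 and the 1.03 seen for Trib3.

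In neighbouring branches of the stress response few genes rose. Of 16 chaperones and degradation factors of the endoplasmic reticulum, 1 rose in Fh1-/- kidneys (Dnajb9, 0.46, limma adjusted p = 0.033). In Fh1-/-Hif-1α-/- kidneys Dnajb9 rose by 0.43, and Calr (-0.68), Edem1 (-0.58) and Dnajc3 fell. Hspa5, the chaperone BiP, did not pass, at -0.02 in Fh1-/- kidneys (adjusted p = 0.95) and -0.31 in Fh1-/-Hif-1α-/- kidneys (adjusted p = 0.081). Of 11 mitochondrial chaperones and proteases 0 passed in Fh1-/- kidneys and 4 fell in Fh1-/-Hif-1α-/- kidneys (Hspd1, Hspe1, Yme1l1 and Spg7), with Hspd1 at -0.42 (adjusted p = 0.034).

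Of the receptor genes listed for GDF15 and FGF21, 5 of 8 were measured: Fgfr1, Fgfr2, Fgfr3, Fgfr4 and Kl. No receptor of GDF15 was among them. Kl fell in both mutant groups, by 0.81 in Fh1-/- kidneys (limma, adjusted p = 0.026) and by 1.13 in Fh1-/-Hif-1α-/- kidneys (adjusted p = 0.0015). Kl encodes α-klotho, the co-receptor of FGF23 and not of FGF21. In Fh1-/-Hif-1α-/- kidneys Fgfr2 rose by 1.29 (adjusted p = 0.00087) and Fgfr3 fell by 0.78 (adjusted p = 0.01).

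Other stress programs moved as well. Of 16 measured Nrf2 targets, the antioxidant genes, 11 rose in Fh1-/- kidneys, and 12 rose and 1 fell (Osgin1) in Fh1-/-Hif-1α-/- kidneys. Slc7a11 is on this list too. Of 15 p53 targets, 4 rose in Fh1-/- kidneys (Cdkn1a, Phlda3, Plk2 and Btg2) and 9 in Fh1-/-Hif-1α-/- kidneys, with Cdkn1a 6.08-fold and 8.10-fold above control in the same order (limma, adjusted p = 3.8e-05 and 4.2e-06). Of 14 immediate early genes, 2 rose in Fh1-/- kidneys (Junb and Btg2) and 7 in Fh1-/-Hif-1α-/- kidneys, and their mean signal varied among the controls (9.45 to 10.32) about as much as among Fh1-/- kidneys (9.95 to 10.71).

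Markers of cell types and of injury moved with the same groups. Of 10 tubular injury genes, 6 rose in Fh1-/- kidneys and 10 in Fh1-/-Hif-1α-/- kidneys by limma, and their summed linear signal ran between 26500 and 45500 in Fh1-/- kidneys and between 61800 and 66300 in Fh1-/-Hif-1α-/- kidneys, against 12000 to 14700 in control kidneys. Of 10 macrophage markers, 5 rose in Fh1-/- kidneys (Mrc1, Lyz2, Adgre1, Ctss and Cd14) and 8 in Fh1-/-Hif-1α-/- kidneys, with sums of 14600 to 26000 and 17500 to 20100, against 8850 to 14000 in control kidneys. Of 9 thick limb and distal tubule markers, 4 fell in Fh1-/- kidneys (Trpm6, Umod, Egf and Pvalb) and 6 in Fh1-/-Hif-1α-/- kidneys. Of 12 proximal tubule markers, 3 fell in Fh1-/- kidneys (Aqp1, Slc5a12 and Slc5a2) and 6 in Fh1-/-Hif-1α-/- kidneys. Of 10 collecting duct markers, 2 rose (Aqp2 and Aqp3) and 1 fell (Slc4a1) in Fh1-/- kidneys, and 6 rose and 2 fell in Fh1-/-Hif-1α-/- kidneys. Their sums were 43800 to 57500 in Fh1-/- kidneys and 69200 to 86300 in Fh1-/-Hif-1α-/- kidneys, against 37100 to 40800 in control kidneys. This is the order of groups seen for Trib3, but it is not particular to collecting duct markers. The sums of the tubular injury genes, p53 targets, Nrf2 targets and aminoacyl-tRNA synthetases kept the same order without overlap. Between Fh1-/-Hif-1α-/- and Fh1-/- kidneys Avpr2 (1.08, adjusted p = 0.0059) and Scnn1g (0.81, adjusted p = 0.04) of this list rose, as did the injury marker Krt18 (1.18, adjusted p = 0.012). Of 11 fibroblast and matrix markers, the same 4 rose in both comparisons with control (Col1a1, Col3a1, Dcn and Postn). Their sums were 33500 to 46700 in Fh1-/- kidneys and 32400 to 54900 in Fh1-/-Hif-1α-/- kidneys, against 18900 to 31700 in control kidneys. Of 4 adipocyte markers, 0 passed in Fh1-/- kidneys and 2 rose in Fh1-/-Hif-1α-/- kidneys (Adipoq and Cidec), with sums of 758 to 4690 and 2660 to 7770, against 721 to 1510 in control kidneys. Kidney markers such as Umod were bright on all arrays, and none of the listed markers can be called absent without detection calls. The part of cell makeup and injury in the differences of the 8 genes was not tested.

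The probes of the targeted genes were no check on the labels, since where they lie relative to the deleted parts is not given in the sources used here. The study's Q-PCR of both genes, which for these groups used mRNA that also went to the arrays, is not analysed here. The brighter Fh1 probe averaged 14.12 ± 0.12 in Fh1-/- kidneys and 13.85 ± 0.17 in Fh1-/-Hif-1α-/- kidneys, against 14.25 ± 0.02 in control kidneys (SD, n = 4), and it fell only in the second (-0.40, limma adjusted p = 0.014; Fh1-/- -0.14, adjusted p = 0.45). The brighter Hif1a probe was higher in Fh1-/-Hif-1α-/- kidneys than in control, by 0.85 (adjusted p = 0.016) and it did not pass in Fh1-/- kidneys (0.35, adjusted p = 0.37). A dimmer Hif1a probe was higher in Fh1-/- kidneys than in control, by 0.97 (adjusted p = 0.046), and did not pass in Fh1-/-Hif-1α-/- kidneys against control (-0.19, adjusted p = 0.65) or against Fh1-/- kidneys (-1.16, adjusted p = 0.099). Xist, expressed from the inactive X chromosome of females, was high on 2 Fh1-/-, 2 Fh1-/-Hif-1α-/- and 1 control arrays. With 1 such control no test was made. The differences from control of all 8 genes were above 0 within the Xist-high and within the Xist-low arrays. Since no mutant array overlapped the controls for these genes, any split of the arrays had to give this sign, and nothing is read from it. For Trib3 in Fh1-/- kidneys they were 3.21 on Xist-high and 3.14 on Xist-low arrays, and for Atf5 2.75 and 3.04. They lay further apart for Ddit3 in Fh1-/- kidneys (2.95 and 2.00) and for Atf4 in Fh1-/-Hif-1α-/- kidneys (0.16 and 0.43).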

How the data were processed

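The authors extracted signals of 12 Illumina MouseWG-6 arrays with GenomeStudio V2010.1 and normalized them in GeneSpring GX 11.0.2 by a shift to the 75th percentile. The deposited values were log2 signals of 23863 probes of 45281, between 6.404 and 16.59, not centred on a median, and how these probes were picked is not given in the sources used here. A second deposited table had 24 columns whose names matched no sample. They were not used, so no detection calls were available. The platform annotation gave 1 gene symbol for 19906 probes, several for 9 and none for 3948. Per the series' design, the 12 arrays come from 12 mice.

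A further shift of at most 0.04 brought the 75th percentiles of the arrays together. All 12 arrays were fitted jointly using limma 3.58.1 under R 4.3.3 (eBayes with a trend on signal), with Benjamini-Hochberg adjustment over all probes and a threshold of 0.05. The fit was tested on simulated data. A gene was taken as its probe of highest mean signal. The SE beside a difference is from this fit, and groups do not overlap when the 4 values of one all lie on one side of the other's. The 10 genes and all lists were chosen with earlier results of these data known. Besides them, text names went to up to 3 called genes per list and comparison by size of difference, to every called gene of lists with 5 or fewer calls, to the 2 nearest profiles per gene, and to Fh1 and Hif1a. Ppp1r15b, Trib1, Hspa5, Trib2, Shmt2, Sars, Avpr2, Scnn1g, Krt18, Csf1r, Fcer1g, the eIF2 kinases, Xist and Osgin1 were named after their values were seen. Promoters came from RefSeq. Alternatives were other scalings, variance models, probe rules, filters, replicate subsets and thresholds. The number of arrays limits precision.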

Additional observations from a re-analysis of the deposited data

Results flagged for a closer look

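Of 36 groups of 4 arrays examined (12 probes in 3 genotypes), 1 held an array set far from the rest: on the dimmer Atf4 probe control replicate 3 read 10.10, while the other 3 controls lay between 11.25 and 11.40. The gap was 0.887 of the group's range, above the 95% critical value of Dixon's test. Chance marks about 1 in 20 such groups. The brighter Atf4 probe showed no such gap in the same control.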

How the results depend on the processing

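Of 489 alternative values of the differences of the 8 genes, 477 stayed within 1 SD of the value given and 12 moved further. Part of the 477 could not move: blocks, the filter of dim probes and omission of an array outside the compared groups leave a difference unchanged. Against control, leaving out arrays could not change a sign either, because the groups did not overlap on the brightest probes. The sign changed in 4 of the 489, all between the mutant groups, where Atf3 gave -0.30 over replicates 3 and 4 alone and -0.17 without Fh1-/- replicate 2, and Atf5 -0.10 over replicates 3 and 4 alone and -0.02 without Fh1-/-Hif-1α-/- replicate 2. The mean of all probes of a gene gave 1.68 and 2.57 for Trib3 and 0.86 and 0.57 for Atf4 in Fh1-/- and Fh1-/-Hif-1α-/- kidneys against control. The other stress response genes that changed in Fh1-/- kidneys numbered 11, against 6 over replicates 1 and 2 alone, 3 over replicates 3 and 4 alone and 7 at an adjusted p under 0.01. In Fh1-/-Hif-1α-/- kidneys they numbered 26, against 5 over replicates 3 and 4 alone and 15 with a fold of at least 2. The cause was not tested, though each subset holds fewer arrays. Leaving out 1 array gave 9 to 15 and 22 to 28. Between the mutant groups the count was 0 under every alternative run. Correlations of deviations between arrays of the same replicate number ran between -0.309 and 0.499. Arrays of different numbers were not set beside them, so whether the numbers pair the mice cannot be said. With the replicate number as a block the counts were 14, 28 and 0. The mean of all probes was not run for these counts. Without detection calls, folds over controls near the floor of the array stay uncertain.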
